A study of Mus musculus with 22 samples.

Results

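Interferon-stimulated genes are the antiviral and immune genes that a cell switches on when interferon binds its receptors, and 42 of them were followed here in 2 types of glia from an amyloid mouse model of Alzheimer's disease. The 42 genes were named as a list, chosen with earlier results of these data known, and found on the array by gene symbol. The counts below, set beside shares of all genes, therefore describe the list and are no independent test of it. The probe brightest on average across the 22 samples stood for each gene. All 42 of 42 had a probe, out of 22485 genes on the array, and 14 had more than 1. In APP/PS1 mice 36 of the 42 were higher in astrocytes and 29 of the 42 in microglia than in wild-type (WT) littermates (limma). In this joint fit of both cell types 0 were lower in either. At an unadjusted p under 0.05 (limma), 0 were lower in astrocytes and 1, Gbp3, in microglia. Gbp3 was also called lower when the microglia samples were fitted without the astrocytes. A subset passed the test in astrocytes alone, with Gbp3, Parp14, Ly6e and Ifi35 showing the widest gap between the cell types, while Lgals3bp had the larger effect in microglia.

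The mice were APPswe/PS1dE9 transgenics (called APP/PS1 here), which carry a mutant human amyloid precursor protein and a mutant presenilin, and their WT littermates, all of strain C57BL/6 and aged 15 to 18 months. Cortex was dissociated with papain, stripped of myelin and sorted by flow cytometry into astrocytes, which bound an antibody to the glutamate transporter GLT1 and lacked CD11b, and microglia, which carried CD11b and CD45. There were 4 APP/PS1 and 4 WT astrocyte samples and 7 APP/PS1 and 7 WT microglia samples, described as biological replicates, and the sources used here do not say whether a sample pooled several mice. Amplified RNA was labelled with Cy3 or Cy5, and 11 two-colour Agilent arrays were used, an APP/PS1 and a WT sample with equal replicate numbers sharing each one. The 2 genotypes were compared at a single age range. In sorted bulk samples, fewer cells of a type and less RNA per cell cannot be told apart.

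Type I interferons signal through the receptor pair Ifnar1 and Ifnar2 and the kinases Jak1 and Tyk2. The signal ends in a transcription factor complex that contains Stat2 and Irf9 and binds a short DNA element, the interferon-stimulated response element, before the start of target genes. The products sense foreign nucleic acid, degrade RNA, block viral entry or release, attach the ubiquitin-like protein ISG15 to other proteins, and, as Usp18 does, damp the signal. Microglia are the resident immune cells of the brain, and astrocytes are its main supporting glia; both can make and answer interferon.

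The response element was looked for before the starts of the members because many of them rose together. The search used the letters GAAA, any 2 bases and GAAA again, or on the other strand TTTC, any 2 bases and TTTC, overlapping matches included, within the 250 bases before each start in RefSeq promoters of mouse build GRCm38.p6. Promoter windows were at hand for 30 of the 42 members, and 13 of those 30 (43.3%) held a match, against 936 of 27025 genes (3.46%). Of the 30 members 7 (23.3%) held 2 or more matches, against 57 of 27025 genes (0.211%). The first 5 sequences below belong to members that rose in both cell types, and the last 3 to members with a larger rise in astrocytes. Each runs 5′ to 3′ on the strand of its gene, with the matched letters in capitals.
Isg15 (chr4:156200860-156200916, minus strand): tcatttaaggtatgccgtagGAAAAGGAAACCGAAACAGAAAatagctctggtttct
Oas1a (chr5:120907526-120907565, minus strand): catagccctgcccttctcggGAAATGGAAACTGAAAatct
Ifit1 (chr19:34640765-34640828, plus strand): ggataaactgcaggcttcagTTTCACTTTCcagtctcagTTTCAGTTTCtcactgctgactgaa
Ifit3 (chr19:34583353-34583431, plus strand): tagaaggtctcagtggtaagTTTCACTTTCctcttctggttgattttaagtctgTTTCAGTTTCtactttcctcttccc
Rsad2 (chr12:26456548-26456592, minus strand): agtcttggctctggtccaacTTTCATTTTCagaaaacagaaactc
Bst2 (chr8:71537572-71537622, minus strand): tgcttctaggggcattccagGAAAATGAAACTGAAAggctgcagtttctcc
Gbp3 (chr3:142559979-142560029, plus strand): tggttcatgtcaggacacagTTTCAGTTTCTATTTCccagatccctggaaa
Slfn8 (chr11:83020834-83020878, minus strand): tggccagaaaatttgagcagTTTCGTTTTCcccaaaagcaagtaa
Isg15 carried 3 overlapping matches, and Oas1a, Bst2 and Gbp3 each carried 2 overlapping matches. Ifit1 and Ifit3 carried 2 separate matches on the opposite strand. The motif was found in 4 of the 8 members with a larger astrocyte effect that had a window, and in 7 of 17 members that were higher in both cell types with no difference past the threshold. A match says only that these letters stand there.

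The sorted cells were checked against marker genes. All 12 of 12 astrocyte markers were higher in WT astrocytes than in WT microglia, and 13 of 14 microglia markers were higher in WT microglia. Values are log2 levels, and a difference of 1 is a doubling. The highest value in the table was 17.89 and the brightest member value was 15.12, so 0 of the 42 members lay within 0.5 of the ceiling. Column medians lay between 6.24 and 6.26, so any change common to all genes is hidden. The samples on 3 of 11 arrays, microglia replicate 1 and astrocyte replicates 1 and 3, differed in sex by the level of the Y-linked gene Eif2s3y, and the members whose calls changed without them are named below.

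In astrocytes, 36 of 42 members were higher in APP/PS1 than in WT samples past an adjusted p of 0.05 (limma, array as block, Benjamini-Hochberg over all genes), where 33.5% of all 22460 genes tested passed and 15.4% were higher. The members' median change was 1.04 on the log2 scale, beside -0.07 for all genes. Of the members 34 of 42 were higher on all 4 arrays, against 19.0% of the genes measured on every array. In 29 of 42, every APP/PS1 sample lay above every WT sample, against 6.37% of genes. The 6 that did not pass were Oas3, Ddx60, Sp100, Herc6, Lgals3bp and Tor3a. With astrocytes fitted alone, so that only their 4 arrays set the spread, 13 of 42 passed at the same median of 1.04, where 12.7% of all genes passed in that fit.

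In microglia, 29 of 42 members were higher in APP/PS1 samples, where 19.7% of 22375 genes tested passed and 8.28% were higher, and 0 were lower, where 11.4% of genes were lower. The members' median change was 0.58, beside -0.04 for all genes. With microglia fitted alone, 30 members were higher and 1, Gbp3, was lower, where 23.6% of all genes passed. Of the 40 members measured on every microglia array, 27 were higher on all 7 arrays, against 11.3% of genes, and 9 had no overlap between the genotypes, against 2.85% of genes. Those 9 were Ifi27l2a, Usp18, Bst2, Isg15, Oasl2, Oas1a, Xaf1, Zbp1 and Lgals3bp. Within slide 1 (4 arrays) the median change was 0.61 and within slide 2 (3 arrays) 0.62, with 10 and 7 members past the threshold in those smaller fits, where 6.84% and 2.63% of genes passed. Without array in the model, 15 of 42 members passed in microglia, where 5.29% of genes did. On the arrays of matched sex, a fit chosen after seeing the data, 37 members were higher in astrocytes (median 1.41, 21.2% of genes passed), with Sp100 added (adjusted p = 0.0382, limma). Only astrocyte replicates 2 and 4 were left there, which had the largest member medians of the 4 arrays (1.29 and 1.56). Sex and the choice of arrays cannot be told apart in it. In microglia the same fit gave 28 higher (median 0.58, 15.8% of genes passed), with Stat2 lost (adjusted p = 0.0582, limma), and 1, Gbp3, lower.

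**Figure D1:**
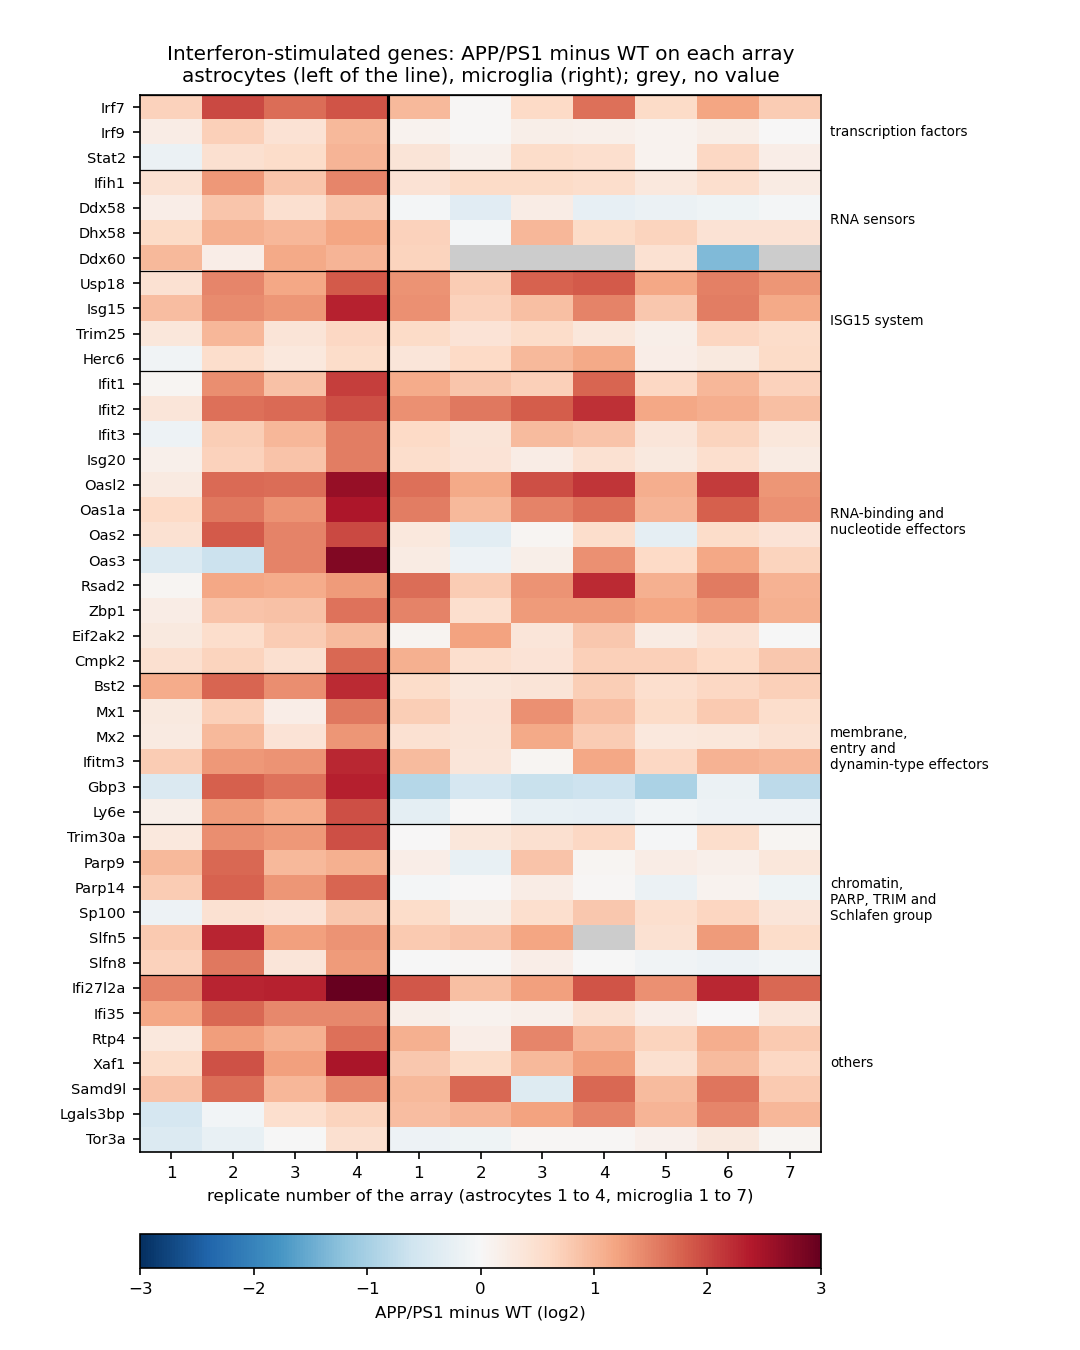
Difference APP/PS1 minus WT (log2, colour) of the 42 members on each of the 4 astrocyte arrays and 7 microglia arrays, ordered by role; grey marks no value, and colours are clipped at 3. Most rows are red on both sides of the line, the astrocyte array of replicate 1 is the palest of the 4, and the Gbp3 and Ly6e rows are blue on all 7 microglia arrays.

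Both cell types showed a rise for 26 of the 42 members, where 2.67% of genes passed upward in both. Across the 42 members the fitted changes in astrocytes and microglia correlated at Pearson r = 0.33 and Spearman rho = 0.33, beside 0.10 and 0.08 over all 22375 genes. These correlations are across genes, which are not independent replicates, and both cell types shared 1 dye estimate per gene. The fitted changes below are given ± SE from limma, over 4 arrays in astrocytes and 7 in microglia, and levels are the log2 values of single samples or, for the 7 microglia samples of a genotype, the lowest, the median and the highest.

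Of the 3 transcription factors 3 rose in astrocytes and 2 in microglia. Irf7, the factor that amplifies interferon production, had levels of 8.09, 8.59, 8.28 and 9.01 in the 4 APP/PS1 astrocyte samples, against 7.41, 6.61, 6.60 and 7.13 in the 4 WT samples. In microglia Irf7 had 7.11, 7.26 and 7.47 in APP/PS1 samples, against 5.46, 6.67 and 7.16 in WT samples. The astrocyte genotypes did not overlap, whereas 1 WT microglia sample reached into the APP/PS1 range. Irf7 rose by 1.56 ± 0.25 in astrocytes (adjusted p = 0.00131, limma) and by 0.85 ± 0.19 in microglia (adjusted p = 0.0124), and the difference of 0.71 ± 0.32 did not pass (adjusted p = 0.135). Irf9, the DNA-binding partner in the interferon-activated complex, rose in astrocytes (0.59 ± 0.11) but its 0.12 ± 0.08 in microglia did not pass, although it was higher on 7 of 7 arrays. The difference for Irf9 passed by a small margin (0.47, adjusted p = 0.0306, limma). Stat2, the other subunit, changed by 0.46 ± 0.15 in astrocytes and 0.38 ± 0.11 in microglia, and both calls were narrow (adjusted p = 0.0377 and 0.0404, limma). Stat2 lost its call without any 1 of astrocyte replicates 2, 3 and 4 and in 6 of 7 microglia fits that left out an array.

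Of the 4 RNA sensors 3 rose in astrocytes and 2 in microglia. Ifih1, which recognises long double-stranded RNA, rose by 1.01 ± 0.14 in astrocytes and by 0.47 ± 0.11 in microglia, and its larger astrocyte effect passed narrowly (adjusted p = 0.046, limma). Dhx58, a regulator of the other sensors, rose by 0.95 ± 0.15 in astrocytes and by 0.52 ± 0.12 in microglia, and the difference did not pass. Ddx58, which encodes the RNA sensor RIG-I, rose by 0.59 ± 0.12 in astrocytes. In microglia its -0.12 ± 0.09 did not pass, and the levels were lower in APP/PS1 samples on 6 of 7 arrays. The difference for Ddx58 was 0.70 ± 0.15 (adjusted p = 0.00764, limma). Ddx60, an RNA helicase, was dim, with values in 14 of the 22 samples. Its 0.83 ± 0.34 in astrocytes and -0.14 ± 0.41 in microglia, where 3 arrays gave a value, did not pass.

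Of the 4 ISG15-system genes 3 rose in astrocytes and 4 in microglia, and 0 had a difference between the cell types that passed. Isg15, the ubiquitin-like modifier itself, rose by 1.49 ± 0.20 in astrocytes and by 1.16 ± 0.15 in microglia, with no overlap of genotypes in either. Usp18, which removes ISG15 and damps receptor signalling, had 9.43, 9.70, 9.76 and 10.29 in APP/PS1 astrocytes, against 8.97, 8.23, 8.59 and 8.44 in WT astrocytes. In microglia Usp18 had 9.35, 9.55 and 9.92 in APP/PS1 samples, against 7.68, 8.24 and 8.61 in WT samples. Every APP/PS1 sample lay above every WT sample in each cell type. Usp18 rose by 1.24 ± 0.22 in astrocytes (2.36-fold, adjusted p = 0.00203, limma) and by 1.40 ± 0.17 in microglia (2.64-fold, adjusted p = 0.000343). Trim25, a ubiquitin ligase that acts on RIG-I, rose by 0.59 ± 0.12 in astrocytes and 0.46 ± 0.09 in microglia. Herc6, the main ISG15 ligase of the mouse, rose by 0.60 ± 0.13 in microglia, and its 0.33 ± 0.17 in astrocytes did not pass (adjusted p = 0.167, limma). The difference between cell types for Herc6 did not pass either (-0.28, adjusted p = 0.373, limma).

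RNA-binding and nucleotide effectors held the largest rises in microglia, and 11 of 12 rose in astrocytes and 10 of 12 in microglia. Oasl2, an oligoadenylate synthetase-like protein, had 10.57, 10.91, 11.11 and 11.79 in APP/PS1 astrocytes, against 10.29, 9.22, 9.42 and 9.19 in WT astrocytes. In microglia Oasl2 had 10.14, 10.25 and 10.61 in APP/PS1 samples, against 8.03, 8.50 and 9.39 in WT samples. The genotypes did not overlap in either cell type, but the WT astrocyte sample of replicate 1 stood well above the other WT samples. Oasl2 rose by 1.56 ± 0.28 in astrocytes (2.96-fold, adjusted p = 0.00226, limma) and by 1.67 ± 0.22 in microglia (3.18-fold, adjusted p = 0.000562), where it was the largest of all members. Oas1a, which makes the oligoadenylates that activate RNase L, had 10.71, 10.86, 10.76 and 11.71 in APP/PS1 astrocytes, against 10.10, 9.27, 9.40 and 9.29 in WT astrocytes. In microglia Oas1a had 11.52, 11.83 and 12.27 in APP/PS1 samples, against 9.90, 10.30 and 10.92 in WT samples. Again no sample of 1 genotype entered the range of the other. Oas1a rose by 1.49 ± 0.23 in astrocytes (adjusted p = 0.000919, limma) and by 1.43 ± 0.17 in microglia (adjusted p = 0.000376).

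The related synthetases Oas2 and Oas3 had fewer calls. Oas2 rose by 1.44 ± 0.23 in astrocytes (adjusted p = 0.0013, limma), and its 0.20 ± 0.18 in microglia did not pass, with 5 arrays higher and 2 lower. The difference for Oas2 was 1.23 ± 0.29 (adjusted p = 0.0122, limma), and it ended without astrocyte replicate 2 (adjusted p = 0.0502). Oas3 was dim and passed in neither cell type. Its differences on the 4 astrocyte arrays were -0.41, -0.66, 1.48 and 2.78. On replicate 4 the WT level was 0.44, the lowest of the WT samples, and the APP/PS1 level of 3.22 was the lowest of the APP/PS1 samples.

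Ifit2, of the family of tetratricopeptide proteins that bind foreign RNA, had 7.79, 8.14, 8.22 and 8.95 in APP/PS1 astrocytes, against 7.42, 6.49, 6.51 and 7.02 in WT astrocytes. In microglia Ifit2 had 7.07, 8.01 and 8.47 in APP/PS1 samples, against 4.88, 6.76 and 7.57 in WT samples. The astrocyte genotypes did not overlap, and the microglia genotypes did. Ifit2 rose by 1.41 ± 0.24 in astrocytes (adjusted p = 0.00147, limma) and by 1.48 ± 0.18 in microglia (adjusted p = 0.000386). Ifit1 of the same family had 8.09, 8.56, 7.00 and 9.35 in APP/PS1 astrocytes, against 8.03, 7.17, 6.11 and 7.28 in WT astrocytes. In microglia Ifit1 had 4.16, 5.60 and 6.72 in APP/PS1 samples, against 2.41, 4.97 and 6.04 in WT samples. The genotypes overlapped in both cell types, with wide gaps between samples of different arrays, yet Ifit1 was higher on 4 of 4 and 7 of 7 arrays. Ifit1 rose by 1.10 ± 0.25 in astrocytes (adjusted p = 0.00728, limma) and by 1.00 ± 0.19 in microglia (adjusted p = 0.00493). Ifit3 rose by 0.78 ± 0.20 in astrocytes and by 0.62 ± 0.15 in microglia, and its astrocyte call was lost without replicate 2 or replicate 4.

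Rsad2, which encodes viperin, an enzyme that makes a chain-terminating nucleotide, had 9.91, 10.39, 10.68 and 10.81 in APP/PS1 astrocytes, against 9.85, 9.22, 9.55 and 9.54 in WT astrocytes. In microglia Rsad2 had 7.43, 8.36 and 8.70 in APP/PS1 samples, against 5.20, 6.88 and 7.67 in WT samples. The astrocyte genotypes were apart by a narrow margin, since the samples of replicate 1 were nearly level, and in microglia the ranges overlapped, with the WT sample of replicate 4 far below the others. Rsad2 rose by 0.91 ± 0.24 in astrocytes (adjusted p = 0.0146, limma) and by 1.41 ± 0.18 in microglia (adjusted p = 0.000522), and the astrocyte call was lost without replicate 2 or replicate 4. Cmpk2, a mitochondrial nucleotide kinase that neighbours Rsad2 in the genome, had 9.78, 9.57, 9.77 and 10.50 in APP/PS1 astrocytes, against 9.29, 8.91, 9.30 and 8.77 in WT astrocytes. In microglia Cmpk2 had 6.05, 6.71 and 6.99 in APP/PS1 samples, against 5.34, 6.00 and 6.17 in WT samples. The astrocyte genotypes did not overlap, and in microglia the highest WT samples reached just above the lowest APP/PS1 sample. Cmpk2 rose by 0.84 ± 0.20 in astrocytes and by 0.69 ± 0.15 in microglia. Zbp1, a sensor of Z-form nucleic acid, rose by 0.90 ± 0.21 in astrocytes and by 1.17 ± 0.16 in microglia. Eif2ak2, the RNA-activated kinase PKR, rose by 0.63 ± 0.12 in astrocytes and 0.49 ± 0.09 in microglia, and the exonuclease Isg20 by 0.80 ± 0.15 and 0.41 ± 0.11. The microglia call of Isg20 was lost in 6 of 7 fits that left out an array.

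Of the membrane, entry and dynamin-type effectors, 6 of 6 rose in astrocytes and 4 of 6 in microglia. Bst2, or tetherin, which holds budding virus at the cell surface, had 11.52, 10.94, 11.15 and 11.92 in APP/PS1 astrocytes, against 10.41, 9.19, 9.76 and 9.69 in WT astrocytes. In microglia Bst2 had 12.40, 12.56 and 12.81 in APP/PS1 samples, against 11.70, 12.07 and 12.12 in WT samples. The genotypes were apart in both cell types, and the gap was wider in astrocytes. Bst2 rose by 1.62 ± 0.15 in astrocytes (3.07-fold, adjusted p = 0.000153, limma) and by 0.56 ± 0.12 in microglia (1.47-fold, adjusted p = 0.00782), and the difference of 1.06 ± 0.19 passed (adjusted p = 0.00317). Ifitm3, which blocks viral fusion in endosomes, rose by 1.41 ± 0.22 in astrocytes and by 0.77 ± 0.17 in microglia, and the difference did not pass (adjusted p = 0.116, limma). Mx1, a dynamin-like antiviral GTPase, had 5.21, 5.39, 5.67 and 6.33 in APP/PS1 astrocytes, against 4.91, 4.67, 5.48 and 4.75 in WT astrocytes. In microglia Mx1 had 7.78, 8.37 and 8.68 in APP/PS1 samples, against 6.86, 7.81 and 8.15 in WT samples. Genotypes overlapped in both, though every array was higher. Mx1 rose by 0.70 ± 0.22 in astrocytes and by 0.77 ± 0.17 in microglia, and Mx2 by 0.75 ± 0.19 and 0.55 ± 0.14. The astrocyte calls of both Mx genes were lost without replicate 2 or replicate 4, and the microglia call of Mx2 without replicate 4.

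Gbp3, a guanylate-binding GTPase that is also induced by interferon gamma, had the widest gap between cell types. Its levels were 11.22, 11.88, 11.23 and 12.36 in APP/PS1 astrocytes, against 11.66, 10.10, 9.61 and 10.03 in WT astrocytes. In microglia Gbp3 had 7.77, 8.42 and 9.48 in APP/PS1 samples, against 8.40, 9.36 and 9.69 in WT samples. In astrocytes 3 of 4 arrays were higher and replicate 1, whose WT sample was the highest WT sample, was lower, and in microglia 7 of 7 arrays were lower. Gbp3 rose by 1.32 ± 0.30 in astrocytes (adjusted p = 0.00756, limma). Gbp3 was 1 of 23 members that lost the astrocyte call with astrocytes fitted alone (limma, adjusted p = 0.114 for Gbp3). Its -0.60 ± 0.23 in microglia did not pass (adjusted p = 0.101, limma), but was called lower with the arrays of matched sex (-0.62, adjusted p = 0.00434), with microglia fitted alone (adjusted p = 0.0016), among genes above the median level (adjusted p = 0.0413) and with array as a random block (adjusted p = 0.042). The difference of 1.92 ± 0.38 was the widest of the 42 (adjusted p = 0.00481, limma). Ly6e, a membrane-anchored surface protein, had 14.17, 14.45, 14.21 and 15.12 in APP/PS1 astrocytes, against 14.01, 13.18, 13.11 and 13.20 in WT astrocytes. In microglia Ly6e had 13.81, 14.04 and 14.21 in APP/PS1 samples, against 14.04, 14.13 and 14.38 in WT samples. The astrocyte genotypes did not overlap, with the WT sample of replicate 1 just under the lowest APP/PS1 samples, and in microglia the ranges overlapped while every array was slightly lower. Ly6e rose by 1.12 ± 0.20 in astrocytes (adjusted p = 0.0019, limma), its -0.14 ± 0.15 in microglia did not pass, and the difference was 1.26 ± 0.25 (adjusted p = 0.00457).

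**Figure D2:**
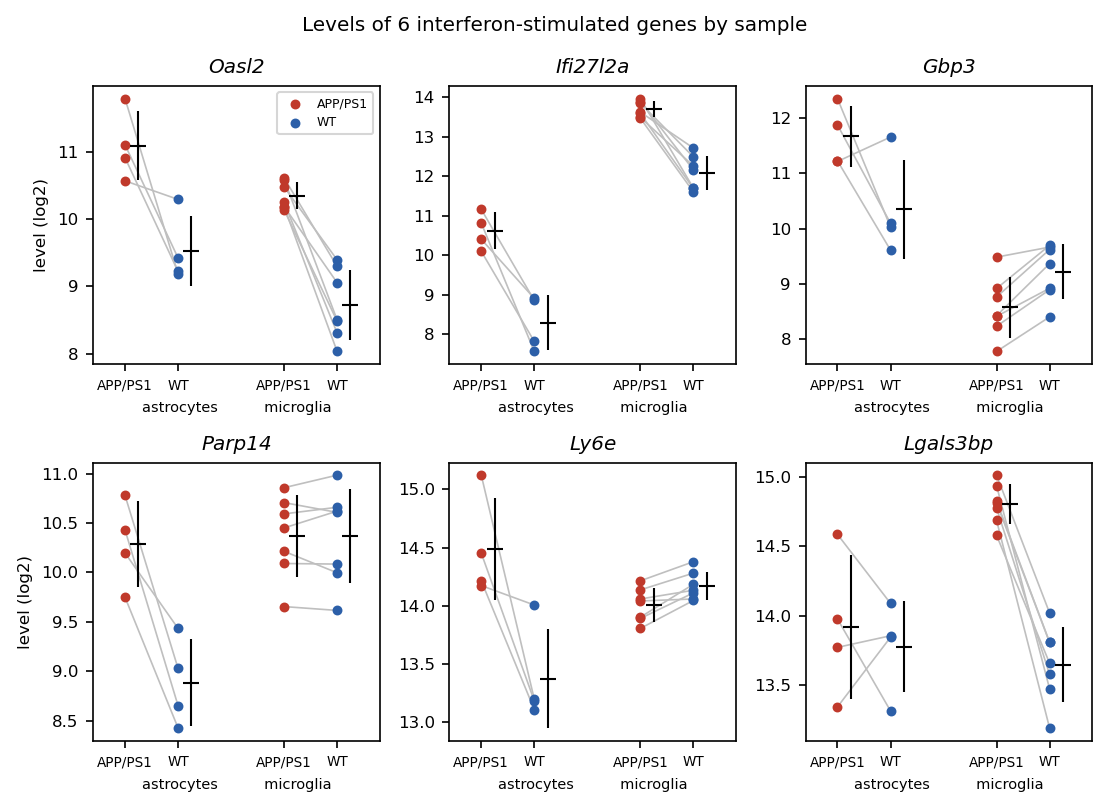
Log2 levels of Oasl2, Ifi27l2a, Gbp3, Parp14, Ly6e and Lgals3bp in every sample, astrocytes on the left of each panel and microglia on the right, APP/PS1 in red and WT in blue; grey lines join samples of 1 array and black marks give mean ± SD (n = 4 and 7 per genotype). Oasl2 and Ifi27l2a were higher in APP/PS1 samples of both cell types, Gbp3, Parp14 and Ly6e in astrocytes alone, and Lgals3bp in microglia alone.

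Among the chromatin, PARP, TRIM and Schlafen genes 5 of 6 rose in astrocytes and 2 of 6 in microglia, and 4 of 6 had a difference past the threshold. Parp14, an ADP-ribosyltransferase, had 10.20, 10.43, 9.75 and 10.78 in APP/PS1 astrocytes, against 9.43, 8.65, 8.43 and 9.03 in WT astrocytes. In microglia Parp14 had 9.65, 10.45 and 10.86 in APP/PS1 samples, against 9.62, 10.61 and 10.98 in WT samples. The astrocyte genotypes did not overlap, and the microglia ranges nearly coincided. Parp14 rose by 1.40 ± 0.15 in astrocytes (2.65-fold, adjusted p = 0.00021, limma), its 0.01 ± 0.11 in microglia did not pass, and the difference was 1.39 ± 0.19 (adjusted p = 0.000671). Its partner Parp9 rose by 1.19 ± 0.14 in astrocytes against 0.20 ± 0.11 in microglia, the second not past the threshold, with a difference of 0.98 ± 0.18 (adjusted p = 0.00308, limma). Trim30a, a TRIM protein known in the mouse to restrain NF-kappaB signalling, rose by 1.24 ± 0.18 in astrocytes against 0.33 ± 0.14 in microglia, and the difference (adjusted p = 0.0141, limma) ended without astrocyte replicate 2 (adjusted p = 0.057). Slfn8, a Schlafen-family gene, had 6.30, 6.77, 6.07 and 6.44 in APP/PS1 astrocytes, against 5.62, 5.18, 5.71 and 5.16 in WT astrocytes. In microglia Slfn8 had 9.52, 10.41 and 10.91 in APP/PS1 samples, against 9.53, 10.48 and 11.0025 in WT samples. The astrocyte genotypes were apart at a low level, and the microglia genotypes overlapped at a high one. Slfn8 rose by 0.98 ± 0.17 in astrocytes (adjusted p = 0.00169, limma), and a second, dimmer probe gave 0.45 ± 0.23 there (adjusted p = 0.17). Slfn5 rose by 1.42 ± 0.23 in astrocytes and by 0.87 ± 0.19 in microglia, the microglia value resting on 6 arrays. Sp100, a nuclear body protein, rose by 0.52 ± 0.10 in microglia and had 0.39 ± 0.14 in astrocytes (adjusted p = 0.0528, limma).

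The remaining members held the largest rise in astrocytes. Ifi27l2a, a small hydrophobic interferon-induced protein, had 10.41, 10.10, 11.16 and 10.82 in APP/PS1 astrocytes, against 8.91, 7.82, 8.86 and 7.57 in WT astrocytes. In microglia Ifi27l2a had 13.47, 13.62 and 13.97 in APP/PS1 samples, against 11.61, 12.16 and 12.72 in WT samples. Every APP/PS1 sample lay above every WT sample in both cell types. Ifi27l2a rose by 2.33 ± 0.25 in astrocytes (5.04-fold, adjusted p = 0.000222, limma) and by 1.64 ± 0.19 in microglia (3.11-fold, adjusted p = 0.000312). Xaf1, which binds the apoptosis inhibitor XIAP, had 10.29, 10.75, 9.85 and 11.05 in APP/PS1 astrocytes, against 9.74, 8.85, 8.62 and 8.61 in WT astrocytes. In microglia Xaf1 had 9.31, 9.54 and 9.84 in APP/PS1 samples, against 8.05, 8.86 and 9.23 in WT samples. Xaf1 did not overlap between genotypes in either cell type, and its WT astrocyte sample of replicate 1 was again the highest of the WT samples. Xaf1 rose by 1.53 ± 0.24 in astrocytes (adjusted p = 0.00109, limma) and by 0.83 ± 0.18 in microglia (adjusted p = 0.0105). Rtp4, a receptor-transporting protein, rose by 1.07 ± 0.23 in astrocytes and by 0.91 ± 0.17 in microglia, and Samd9l, a growth-restraining factor, by 1.24 ± 0.26 and 1.10 ± 0.20.

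Ifi35, an interferon-induced leucine zipper protein, had 9.94, 9.84, 9.34 and 10.25 in APP/PS1 astrocytes, against 8.78, 8.12, 7.90 and 8.81 in WT astrocytes. In microglia Ifi35 had 9.57, 9.88 and 10.03 in APP/PS1 samples, against 9.10, 9.72 and 9.84 in WT samples. The astrocyte arrays all showed a similar gap, and the microglia ranges overlapped. Ifi35 rose by 1.44 ± 0.11 in astrocytes (adjusted p = 7.99e-05, limma), its 0.20 ± 0.08 in microglia did not pass, and the difference was 1.24 ± 0.13 (adjusted p = 0.000226). Lgals3bp, a secreted galectin-3-binding glycoprotein, was the reverse case. It had 13.34, 13.77, 14.59 and 13.97 in APP/PS1 astrocytes, against 13.84, 13.85, 14.09 and 13.31 in WT astrocytes. In microglia Lgals3bp had 14.58, 14.81 and 15.01 in APP/PS1 samples, against 13.19, 13.66 and 14.02 in WT samples. In astrocytes 2 arrays were higher and 2 lower, and in microglia the genotypes were far apart on all 7. Lgals3bp rose by 1.20 ± 0.10 in microglia (2.29-fold, adjusted p = 3.47e-05, limma), its 0.14 ± 0.13 in astrocytes did not pass, and the difference was -1.05 ± 0.16 (adjusted p = 0.00133). Tor3a, a torsin ATPase, passed in neither cell type, at -0.04 ± 0.12 in astrocytes and 0.06 ± 0.09 in microglia.

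The test of the difference between cell types passed for 13 members, where 26.6% of genes passed: 12 with a larger effect in astrocytes, where 13.4% of genes passed in that direction, and 1 with a larger effect in microglia, where 13.2% did. The 10 members that passed in astrocytes alone, Oas2, Irf9, Ifi35, Ddx58, Trim30a, Parp9, Parp14, Gbp3, Ly6e and Slfn8, all had such a difference. Picking members that passed in 1 cell type and not in the other favours a difference, and the matching share of all genes was not counted. Of the 3 that passed in microglia alone, Lgals3bp had one and Sp100 and Herc6 did not. Bst2 and Ifih1 rose in both with a larger astrocyte effect. Next to Ifi27l2a, the largest microglia changes, those of Oasl2, Ifit2, Oas1a, Rsad2 and Usp18, did not differ past the threshold from those in astrocytes, with differences between -0.51 and 0.07. Without array in the model the 12 became 5, where 6.66% of genes passed in either direction. Without astrocyte replicate 2 they became 8, where 19.7% of genes passed in either direction. On the arrays of matched sex, which left only astrocyte replicates 2 and 4, they became 14, where 18.4% of genes passed in either direction. Xaf1 (1.37, adjusted p = 0.0095, limma) and Isg20 (0.74, adjusted p = 0.0257) were added.

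**Figure D3:**
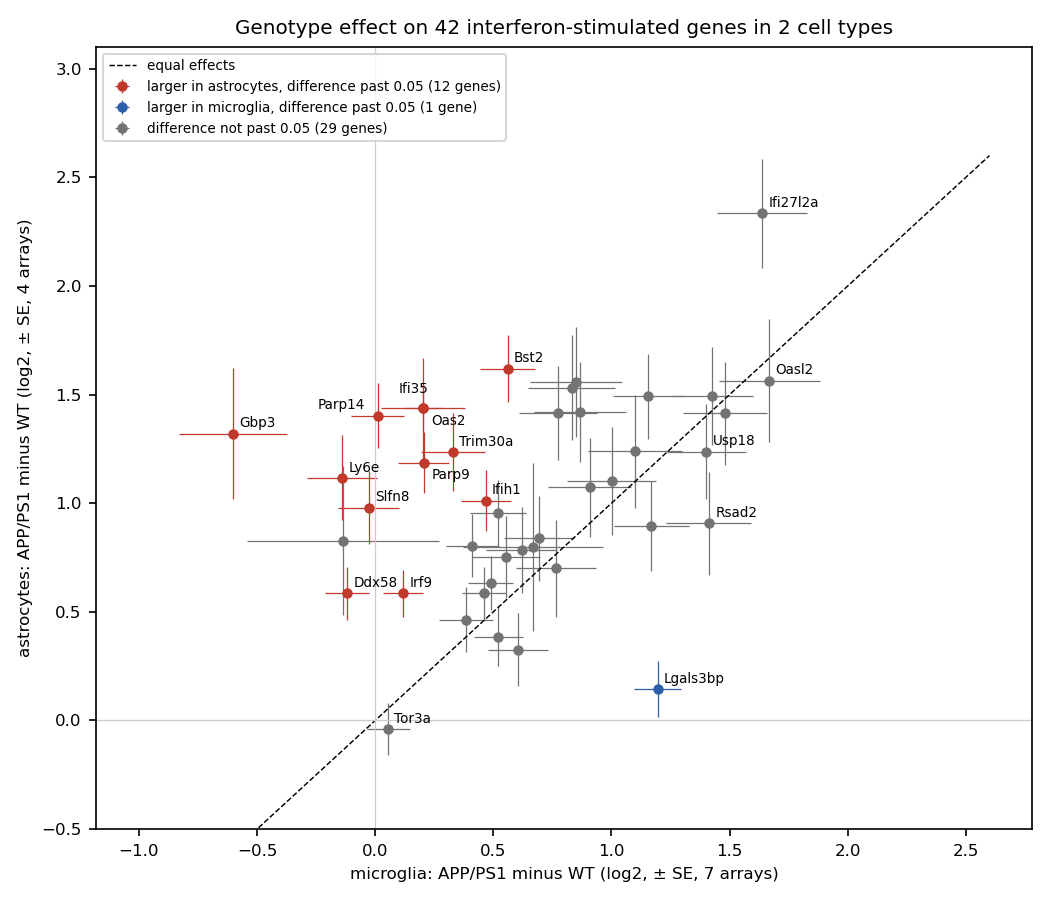
Fitted change APP/PS1 minus WT (log2, ± SE) of the 42 members in astrocytes (vertical, 4 arrays) against microglia (horizontal, 7 arrays); the dashed line marks equal effects and colours mark a difference past an adjusted p of 0.05. The 12 red genes lie well above the line, Gbp3 farthest to the left, and Lgals3bp lies alone at the lower right.

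The 4 astrocyte arrays differed in the size of the members' differences. The members' median difference was 0.33, 1.29, 1.04 and 1.56 on the arrays of replicates 1 to 4, and replicate 1 had the smallest difference for 36 of the 42 members and replicate 4 the largest for 32. The members' mean level was 9.39, 9.54, 9.49 and 10.05 in the APP/PS1 samples, against 9.01, 8.38, 8.49 and 8.45 in the WT samples, so the WT sample of replicate 1 was the highest of its group and the APP/PS1 sample of replicate 4 the highest of its own. The 7 microglia arrays lay closer together, with medians between 0.40 and 0.80. Leaving out astrocyte arrays 1 to 4 in turn gave 37, 31, 35 and 31 members higher, with medians of 1.22, 0.97, 1.15 and 0.85. Of all genes 26.6%, 24.7%, 30.5% and 28.3% passed in either direction in those fits.

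Markers of other cell types moved with genotype in the astrocyte samples. Of the endothelial markers 10 of 11 were higher in APP/PS1 astrocyte samples, their mean level running from 12.45 to 13.34 in APP/PS1 samples, against 11.64 to 12.40 in WT samples. Their median difference on replicates 1 to 4 was 0.29, 1.49, 0.83 and 1.65, which ranks the arrays as the members' medians do. Of the mural cell markers 7 of 9 were higher, at 12.08 to 14.07 in APP/PS1 samples, against 10.23 to 12.49 in WT samples. Their median differences were 1.67, 2.92, 2.06 and 1.21 by array, lowest on replicate 4, where the members' was largest. Of the microglia markers 10 of 14 were higher and 3 lower, at 8.89 to 10.93 in APP/PS1 samples, against 7.75 to 9.04 in WT samples, with median differences of 3.29, 1.53, 1.63 and 0.11 by array, so the array with the smallest microglial difference had the largest member difference. Of the astrocyte markers 11 of 12 were lower and 1 higher, at 12.74 to 14.50 in APP/PS1 samples, against 14.55 to 14.82 in WT samples. Their median differences were -2.15, -1.55, -0.38 and -1.44 on replicates 1 to 4. The part of these cells in the members' rise in astrocyte samples was not tested. In microglia samples 1 of 11 endothelial markers was higher, 5 of 7 markers of perivascular macrophages and monocytes were lower and 0 higher, and 7 of 14 microglia markers were lower and 2 higher. Of the neuron markers 5 of 9 were lower and 0 higher (median -0.47), and of the astrocyte markers 5 of 12 were lower and 1 higher (median -0.55). The microglia markers ran from 14.68 to 14.87 in APP/PS1 microglia, against 15.02 to 15.43 in WT microglia, and the part of these shifts in the members' rise was not tested.

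**Figure D4:**
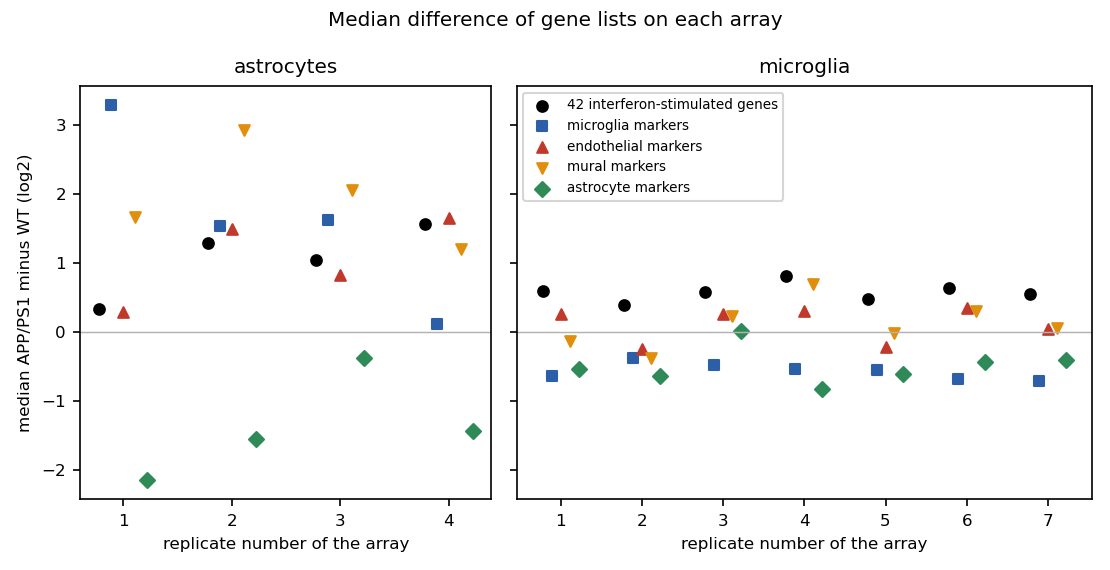
Median difference APP/PS1 minus WT (log2) of the 42 members and of 4 marker lists on each array, astrocytes in the left panel and microglia in the right. The members' medians lie above 0 on all 11 arrays, and on the astrocyte arrays the endothelial medians follow the same order while the microglia marker medians are highest on replicate 1, at 3.29, and lowest on replicate 4, at 0.11.

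Levels in WT astrocytes were set beside those in WT microglia. Cell types never shared an array or a slide, so the slide and the cell type cannot be told apart. Of all genes 53.3% differed. Of the 42 members 10 were higher in WT astrocytes, where 35.3% of all genes were, and 15 were lower, where 18.0% were, and 17 did not pass (limma, array as a random block). The members' median difference was 0.05, beside 0.34 for all genes. With slide as a random block, 5 members were higher and 9 lower, where 32.4% of genes passed. Among those higher in WT astrocytes, Cmpk2 was 3.18 ± 0.24 higher (adjusted p = 5.74e-10, limma), Rsad2 2.76 ± 0.34 (adjusted p = 6.05e-07) and Ifit1 2.53 ± 0.53 (adjusted p = 0.000361). For these 3 genes every WT astrocyte sample lay above every WT microglia sample, and Cmpk2 and Rsad2 are neighbouring genes. At the other end Slfn8 was at -4.92 ± 0.26 in WT astrocytes relative to WT microglia (adjusted p = 1.27e-12, limma), Ifi27l2a at -3.79 ± 0.31 (adjusted p = 1.67e-09) and Mx1 at -2.66 ± 0.30 (adjusted p = 1.7e-07). Again the cell types did not overlap, and Ifi27l2a rose in both cell types although their WT levels lay far apart. The genes at both ends were picked for the largest differences, which favours ranges that do not overlap. The matching share of all genes was not counted. Other members lower in WT astrocytes were Trim30a (-2.49), Bst2 (-2.26), Dhx58 (-1.73), Parp14 (-1.48), Oas3 (-1.30), Parp9 (-1.27), Ifi35 (-1.24), Zbp1 (-1.12), Oas1a (-0.92), Ly6e (-0.78), Ddx58 (-0.51) and Tor3a (-0.49). Others higher were Samd9l (2.22), Slfn5 (2.03), Ifit3 (1.55), Ifitm3 (1.53), Gbp3 (1.15), Oasl2 (0.83) and Stat2 (0.66). The Oas3 call was lost in 8 of 11 fits that left out an array, at -0.59 without astrocyte replicate 4 (adjusted p = 0.274, limma). The Oasl2 call was lost in 6 of 11 such fits, at 0.59 without astrocyte replicate 1 (adjusted p = 0.116, limma). The Ddx58 call was lost without astrocyte replicate 2. Lgals3bp, not called here, was called lower in WT astrocytes with the mean of its probes (-0.40, adjusted p = 0.0355, limma). Basal differences and genotype effects share the WT samples, so these values stand beside the genotype effects and no overlap between them is counted.

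**Figure D5:**
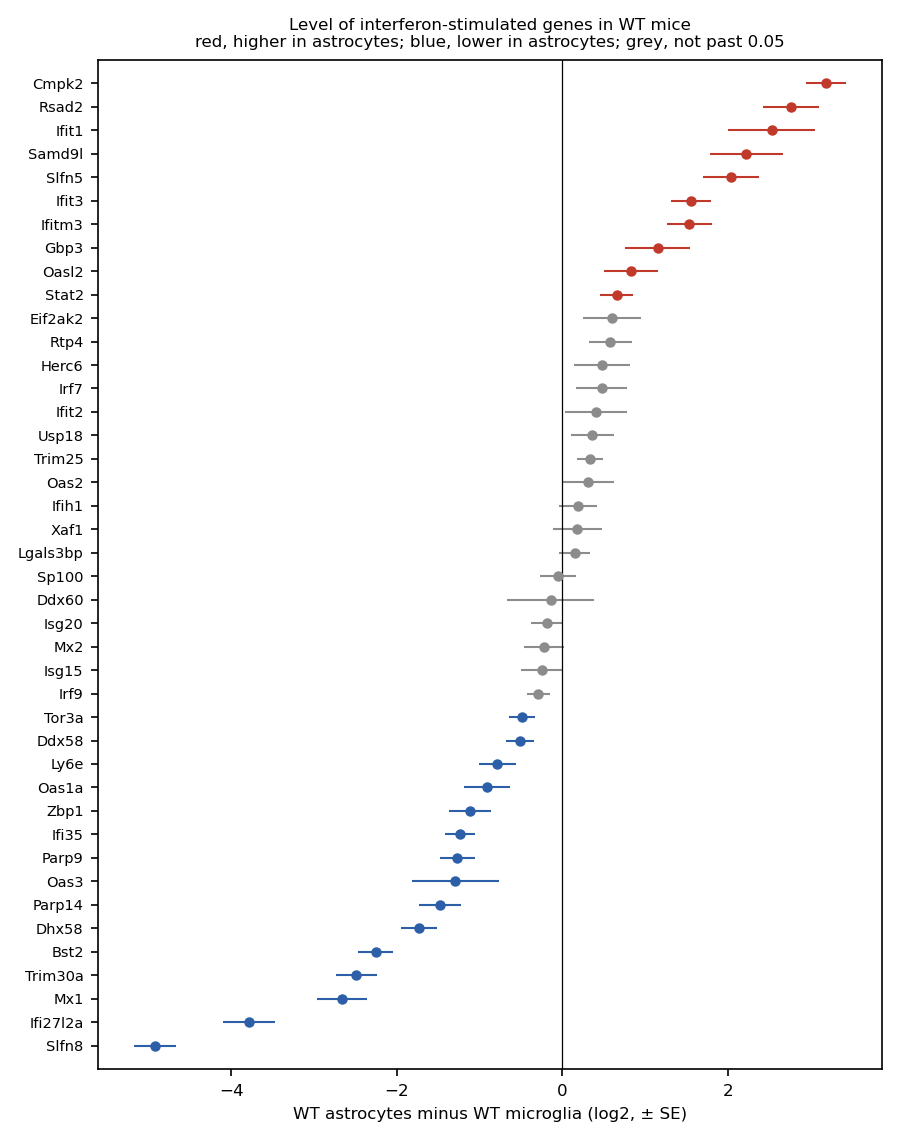
Level of the 42 members in WT astrocytes minus WT microglia (log2, ± SE from limma; 4 and 7 samples), sorted by the difference. Cmpk2, Rsad2 and Ifit1 lie at the top right and Slfn8, Ifi27l2a and Mx1 at the bottom left, with the 17 grey genes between.

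Of 43 other listed genes of the interferon pathway (ligands, receptors, kinases and factors, sensors and inhibitors) 39 were tested and the 4 others were not analysed here. In astrocytes 13 of the 39 were higher and 8 lower, where 15.4% of all genes were higher and 18.0% lower. In microglia 3 were higher and 7 lower, where 8.28% of all genes were higher and 11.4% lower. The median changes were 0.11 in astrocytes and -0.06 in microglia. Of 9 interferon ligands 0 were higher in either cell type (limma), also at an unadjusted p under 0.05. With 15.4% and 8.28% of all genes higher, so few ligands say little, and the unadjusted share of all genes was not counted. Ifng, encoding interferon gamma, had the largest ligand estimates, 1.39 ± 0.77 in astrocytes and 1.22 ± 0.59 in microglia. Neither passed (adjusted p = 0.203 and 0.193, limma). Ifna1 and Ifna5 were lower in APP/PS1 astrocytes, with changes of -0.53 ± 0.10 and -0.83 ± 0.11, at mean levels of 5.25 and 4.30 in APP/PS1 samples, against 5.77 and 5.12 in WT samples, which is below the median gene. Ifnb1, encoding interferon beta, had 0.51 ± 0.31 in astrocytes and 0.28 ± 0.24 in microglia, and neither passed.

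Of the receptors, Ifnar2 rose by 0.39 ± 0.09 in astrocytes and by 0.46 ± 0.07 in microglia. Ifnar1 rose by 0.63 ± 0.15 and Il10rb, a receptor chain for interferon lambda and interleukin 10, by 0.71 ± 0.16 in astrocytes. The interferon gamma receptor chain Ifngr1 was lower in microglia, at -0.77 ± 0.08. Of the kinases and factors, Jak2 (0.48 ± 0.09), Stat3 (0.46 ± 0.10), Irf1 (1.22 ± 0.18), Irf5 (1.26 ± 0.13) and Irf8 (1.51 ± 0.18) rose in astrocytes, Irf3 was lower there (-0.30 ± 0.08), and Jak1 was lower in microglia (-0.33 ± 0.06). Irf5 and Irf8 are genes of myeloid cells, and their mean levels in WT samples were 5.80 and 5.28 in astrocytes and 11.86 and 13.51 in microglia.

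Among the sensing genes, Tlr7 (1.58 ± 0.21), Myd88 (0.97 ± 0.10) and Trim21 (0.52 ± 0.15) rose in astrocytes, and Ticam1 (-0.84 ± 0.14) fell. Tlr3, Tlr9 and Mavs fell in both cell types, with changes of -0.85 ± 0.12, -0.27 ± 0.07 and -0.45 ± 0.09 in astrocytes and -0.31 ± 0.09, -0.26 ± 0.05 and -0.23 ± 0.07 in microglia. Tlr4 fell (-0.61 ± 0.09) and Ikbke rose (0.72 ± 0.17) in microglia. The inhibitor Socs3 went opposite ways, with 1.32 ± 0.13 in astrocytes and -0.55 ± 0.10 in microglia, both past the threshold. The phosphatase gene Ptpn2 did the reverse, with -0.46 ± 0.08 in astrocytes and 0.29 ± 0.06 in microglia. Ptpn6, which is typical of blood and myeloid cells, rose by 2.12 ± 0.19 in astrocytes.

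The 14 members with several probes were compared probe by probe. For Isg15, Oas1a, Zbp1, Samd9l, Cmpk2, Ifih1 and Isg20 every probe passed upward in both cell types, and all 10 Ifitm3 probes did, at 1.28 to 1.42 in astrocytes and 0.76 to 0.83 in microglia. Both Lgals3bp probes passed in microglia (1.20 and 0.96) and neither in astrocytes (0.14 and 0.20). The second probe of Xaf1 passed in astrocytes (1.14) and not in microglia (0.40, adjusted p = 0.341, limma). The second Ddx58 probe had 0.73 in astrocytes and 0.26 in microglia, a sign opposite to the -0.12 of the brighter probe. With the mean of both probes, the Ddx58 level in WT astrocytes relative to WT microglia was 0.16 rather than the -0.51 of the brighter probe. With probes averaged for every gene, 11 members rather than 12 had a larger astrocyte effect, where 25.4% of genes passed in either direction. In microglia 28 rather than 29 were higher, where 18.6% of genes passed in either direction. Members with close relatives in the mouse genome, such as Oas1a, Ifit3, Gbp3 and Slfn8, may be read in part by probes that also bind a relative, which was not tested.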

How the data were processed

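The deposited table held a log2 value per probe and channel, so each sample had its own column; per the submitters' processing notes limma was used, and the background correction and normalization were not given in the sources used here. GEO's platform annotation named 1 gene for 33026 of its 43020 probes and left 9994 unnamed. Every gene was represented by its probe with the highest mean over 22 samples, which left 22485 genes. Array labels gave 11 arrays on 3 slides, with dyes exchanged between arrays. Whole-number depth does not apply to arrays, and the number of arrays limits the precision.

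The 2 genotypes were compared with limma 3.58.1 (statmod 1.5.0, R 4.3.3) in a single model of the 22 samples whose terms were the array (a fixed block), the dye, and genotype nested in cell type, and the difference of the 2 genotype effects was tested in that model. WT cell types were compared with array as a random block (consensus correlation 0.635). Adjusted p-values are Benjamini-Hochberg over all genes, with a threshold of 0.05. The array block follows from the design, because the APP/PS1 and WT samples of the same number shared an array. Their deviations from group means correlated at a median of 0.23 in astrocytes (0.00 to 0.50) and 0.47 in microglia (0.37 to 0.63). For samples of different arrays the medians were -0.12 (-0.47 to 0.42) and -0.20 (-0.53 to 0.51), so the ranges overlapped in both cell types. The samples are described as biological replicates. In the main fits the p-values rest on 1 spread per gene, pooled over the samples of both cell types.

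The members and all gene lists were chosen with earlier results of these data known. Members whose levels are printed (each astrocyte sample; lowest, median and highest of the microglia samples) were the 6 with the largest changes in each cell type, the 4 with the largest difference in favour of astrocytes and the 1 in favour of microglia, and the 3 at each end of the WT comparison, among those past the threshold. Pathway genes past the threshold in either cell type were named. The alternatives left out each array in turn, the array block, the dye or one slide, made the block random, fitted each cell type alone, averaged all probes, quantile normalized again, or kept brighter or fully measured genes. The fit limited to arrays of matched sex was chosen after seeing the data. The fits were tested on simulated data with known changes. Tables and figures used Python 3.11.15, pandas 2.3.3, numpy 2.4.6 and matplotlib 3.10.9.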

Additional observations from a re-analysis of the deposited data

Results flagged for a closer look

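In 6 of 83 sets of array differences tested (1 gene in 1 cell type), 1 array stood apart from the others, a rule that chance meets in about 1 in 20 sets. In astrocytes, the Rsad2 difference was 0.06 on the array of replicate 1, against 1.12 to 1.28 on the others. Ddx60 had 0.2 on replicate 2, against 0.97 to 1.13. Parp9 had 1.72 on replicate 2, against 0.98 to 1.06. Cmpk2 had 1.73 on replicate 4, against 0.47 to 0.66. In microglia, Ifit1 had 1.75 on replicate 4, against 0.63 to 1.11, and Zbp1 had 0.51 on replicate 2, against 1.08 to 1.49.

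The genotype effect differed between astrocytes and microglia, by the test of that difference in limma, for 13 of the 42 members. That test passed for 26.6% of all genes, 13.4% with the larger effect in astrocytes and 13.2% with the larger effect in microglia. The astrocyte effect was larger by 1.92 for Gbp3, 1.39 for Parp14, 1.26 for Ly6e, 1.24 for Ifi35 and 1.23 for Oas2. It was larger by 1.06 for Bst2, 1.01 for Slfn8, 0.98 for Parp9 and 0.91 for Trim30a. Ddx58, Ifih1 and Irf9 followed at 0.70, 0.54 and 0.47. For Lgals3bp the difference was -1.05, so the effect was larger in microglia.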

How the results depend on the processing

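Without array in the model (no replicate block) 15 members were higher in microglia, 29 in astrocytes, and 5 had the larger astrocyte effect. Of all genes 5.29%, 10.9% and 6.66% passed in either direction in those tests. The block changed no other count by over 1.5 times. Slide 1 alone gave 10 and slide 2 alone 7 members higher in microglia, astrocytes fitted alone 13 higher, and slide as a random block 5 higher and 9 lower in WT astrocytes. Gbp3 was the 1 member called lower in microglia with the arrays of matched sex, each cell type alone, genes above the median gene, or array as a random block. Leaving out 1 array at a time gave 31 to 37 members higher in astrocytes (median 0.85 to 1.22) and 26 to 30 in microglia (median 0.53 to 0.67), with 0 lower in either. It gave 8 to 15 larger in astrocytes, 1 larger in microglia, and 9 to 11 higher and 14 to 15 lower in WT astrocytes. In those fits 24.7% to 30.5% of genes passed in astrocytes and 14.8% to 17.5% in microglia, in either direction. For the difference between cell types 19.7% to 26.6% passed, and for the WT comparison 49.7% to 53.9%.

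The sign turned for values that were mostly small and not past the threshold. With arrays of matched sex the astrocyte change of Tor3a was 0.14, and the difference between cell types was 0.53 for Oasl2, 0.39 for Mx1, 0.33 for Ifit2, 0.26 for Usp18, 0.14 for Zbp1, 0.13 for Sp100 and 0.066 for Tor3a. That fit leaves out astrocyte replicate 1. With only replicate 1 left out, the difference was 0.29 for Oasl2, 0.25 for Ifit2, 0.11 for Usp18 and 0.078 for Mx1. It was 0.034 for Sp100 and 0.006 for Tor3a, and its sign did not turn for Zbp1. With the mean of all probes the WT difference was 0.16 for Ddx58, which was called lower with 1 probe. For Lgals3bp it was -0.40 and passed (adjusted p = 0.0355, limma), against 0.15 with 1 probe, which did not pass. In that setting the difference between cell types of Samd9l was -0.083 and the microglia change of Ddx58 was 0.068. Without dye Parp14 was -0.001 in microglia, and slide 1 alone gave 0.71 for Ddx60 and 0.031 for Slfn8. The cause was not tested.

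Across fits without 1 array, the difference between cell types spanned 0 for Usp18 (-0.35 to 0.11), Ifit2 (-0.26 to 0.25), Oasl2 (-0.37 to 0.29), Mx1 (-0.37 to 0.13), Sp100 (-0.25 to 0.034), Tor3a (-0.24 to 0.006), Ifit1 (-0.15 to 0.41), Oas1a (-0.20 to 0.35), Trim25 (-0.028 to 0.23), Samd9l (-0.17 to 0.35), Ifit3 (-0.034 to 0.45), Oas3 (-0.36 to 0.47), Mx2 (-0.006 to 0.39), Stat2 (-0.068 to 0.28), Rtp4 (-0.029 to 0.46) and Cmpk2 (-0.16 to 0.29). So did the astrocyte change of Tor3a (-0.20 to 0.056), the microglia changes of Parp14 (-0.037 to 0.028) and Ddx60 (-0.42 to 0.81), and the WT differences of Xaf1 (-0.080 to 0.28), Ddx60 (-0.36 to 0.31) and Sp100 (-0.21 to 0.027). Such a fit ended the difference of Ifih1 in 9 of 11 cases and of Irf9 in 7 of 11. Dim probes limit Ddx60 and Slfn5, which lacked values in 8 and 2 of the 22 samples, and Oas3, whose mean level was 4.00.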
